A study of Mus musculus with 2 samples.

Results

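Genes for the subunits of oxidative phosphorylation were examined in macrophages sorted from mouse fetal liver. Genes were taken by symbol: those beginning with Ndufa, Ndufb, Ndufc, Ndufs or Ndufv, with Uqcr or with Atp5, the genes Sdha to Sdhd, Cyc1, and the Cox4i, Cox5, Cox6, Cox7 and Cox8 genes. The rule found 91 genes among the 18193 with a probe set that names a single gene, and each gene was read from its brightest probe set by mean deposited signal. By complex they were 34 genes of complex I, 8 assembly factors of complex I that share the Ndufa stem, 4 of complex II, 9 of complex III, 19 of complex IV and 17 of complex V.

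The study compared c-Maf knockout with wild-type macrophages, with 1 Affymetrix array for the c-Maf-/- genotype and 1 for c-Maf+/+, both from C57BL/6J embryos at E15.5, a stage named by embryonic day. Cells carrying both Mac-1 and F4/80 were sorted, neither group received a treatment, and the stated aim was to find genes that are lower without c-Maf, a transcription factor of the leucine zipper class. The sources used here do not give how many embryos were combined, and the labels name no tissue-specific deletion. With 1 array per genotype there was no replicate, no test and no standard error, and the number of arrays limits the precision of every value below. In bulk RNA, fewer cells of a type and less RNA per cell cannot be told apart.

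Oxidative phosphorylation takes place in the inner mitochondrial membrane. Complex I oxidises NADH and complex II oxidises succinate, both passing electrons to ubiquinone. Complex III hands them on to cytochrome c and complex IV to oxygen, while complex V, the ATP synthase, uses the proton gradient so built to make ATP. Most subunits are encoded in the nucleus, a few in mitochondrial DNA, and transcription factors of the NRF1 and ETS (GABPA) families are known regulators of many of the nuclear genes. In macrophages the balance between this pathway and glycolysis is known to change with activation state.

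Signals are given as deposited, in arbitrary linear units, with the knockout array first. The knockout array was dimmer as a whole: its median probe set had a signal of 2.98, against 4.73 on the wild-type array, and the median gene had a deposited log2 ratio of -0.79. Ratios below are therefore level-adjusted, that is log2 of c-Maf KO over wild type after quantile normalization, unless deposited signal is named. Values under a floor of 3.75 (the 50th percentile of all adjusted values; 3.70 as deposited) were raised to it, and a gene under it on 1 array has only a bound. The median of all 13290 measured genes was 0.01 on this scale. Maf itself had a deposited signal of 0.219 on the c-Maf KO array and 47.6 on the wild-type array, at least 8.51-fold lower. Of the sort markers, Adgre1 (F4/80) had 48.1 and 71.4 on the c-Maf KO and wild-type arrays, and Itgam (Mac-1) was close to the floor at 3.94 and 5.76.

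The promoters of 4 members are shown because they carry motifs of the pathway's known regulators and belong to genes at opposite ends of the results below. Cox6a1 and Cox6b1 were among the lowest members, Atp5g2 and Atp5md among the highest. The windows run from 250 bases before to 50 after the gene start, read 5′ to 3′ on the gene's strand, which is minus for all 4, and come from RefSeq on GRCm38.p6. They lie at chr5:115348909-115349208, chr7:30626065-30626364, chr15:102670998-102671297 and chr19:47090598-47090897, in the order of the lines that follow. Capitals mark matches, on either strand, to an NRF1 motif (GCGCA followed directly by its reverse complement TGCGC), an ETS motif (CCGGAAG), a YY1 motif (AAGATGGC), the CCAAT box or a Maf core motif (TGCTGAC). No motif contains another.
Cox6a1: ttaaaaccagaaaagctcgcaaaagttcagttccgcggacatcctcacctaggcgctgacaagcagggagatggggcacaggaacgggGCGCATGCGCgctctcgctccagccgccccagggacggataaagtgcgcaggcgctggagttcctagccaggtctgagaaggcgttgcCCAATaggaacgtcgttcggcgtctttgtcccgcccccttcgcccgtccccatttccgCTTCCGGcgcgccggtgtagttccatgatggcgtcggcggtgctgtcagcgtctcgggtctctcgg
Cox6b1: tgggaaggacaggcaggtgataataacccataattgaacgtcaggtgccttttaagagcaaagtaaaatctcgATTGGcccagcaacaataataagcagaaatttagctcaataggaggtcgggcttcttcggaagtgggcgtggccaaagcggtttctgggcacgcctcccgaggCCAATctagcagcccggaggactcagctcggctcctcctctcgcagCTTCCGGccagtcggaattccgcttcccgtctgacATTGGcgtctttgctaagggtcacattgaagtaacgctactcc
Atp5g2: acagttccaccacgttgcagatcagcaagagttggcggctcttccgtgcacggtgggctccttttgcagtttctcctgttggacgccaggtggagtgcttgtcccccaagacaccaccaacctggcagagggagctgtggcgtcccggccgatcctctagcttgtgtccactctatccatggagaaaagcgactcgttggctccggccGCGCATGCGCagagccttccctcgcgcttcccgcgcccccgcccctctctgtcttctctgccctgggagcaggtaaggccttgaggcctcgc
Atp5md: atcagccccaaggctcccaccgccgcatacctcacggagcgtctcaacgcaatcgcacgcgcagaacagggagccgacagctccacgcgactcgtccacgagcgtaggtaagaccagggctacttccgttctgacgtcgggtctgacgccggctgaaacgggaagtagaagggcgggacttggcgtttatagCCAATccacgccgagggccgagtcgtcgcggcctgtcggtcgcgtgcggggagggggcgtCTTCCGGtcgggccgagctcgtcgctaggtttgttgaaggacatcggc
Cox6a1 and Atp5g2 both held the NRF1 motif, and Cox6a1, Cox6b1 and Atp5md all held the ETS motif. These windows were chosen for holding a motif, so what they share was fixed by that choice. The windows of Cox5a, the lowest member, and of Atp5o, next to the highest within complex V, held none of the motifs. Over the 79 promoter windows found for 74 members, 6 held the NRF1 motif, or 7.59%, against 0.971% of all 32851 windows. The ETS motif stood in 24.1% of member windows and 8.86% of all windows, the YY1 motif in 12.7% and 2.75%, and the CCAAT box in 41.8% and 37.4%. The Maf core motif stood in 0 of the 79 member windows and in 4.67% of all windows, which says only that these letters are not in these windows. A match is a description of sequence and not a binding site.

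Most members were bright on both arrays. Of the 91, 87 reached the floor on 1 array or both, and 75 reached 4 times the floor in level-adjusted signal. The brightest 10% of measured genes held 69.0% of the 87 on the c-Maf KO array and 55.2% on the wild-type array. The 4 members below the floor on both arrays were Ndufb4, Cox7a1, Cox7b2 and Cox8b. The median member had a signal of 73.6 on the c-Maf KO array and 127 on the wild-type array. Relative to other genes the members ranked slightly higher on the c-Maf KO array, with a median percentile of 94.8 there and 92.8 on the wild-type array, and 55 of 87 members ranked higher on the c-Maf KO array. Their part of the summed signal of all measured genes was nevertheless smaller, at 2.64% on the c-Maf KO array and 3.04% on the wild-type array. The rank describes the typical member, while the sum is carried by the few brightest, among them Uqcrb, Cox6a1, Cox6b1 and Cox5a, which all had a level-adjusted ratio below -0.5.

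**Figure D1:**
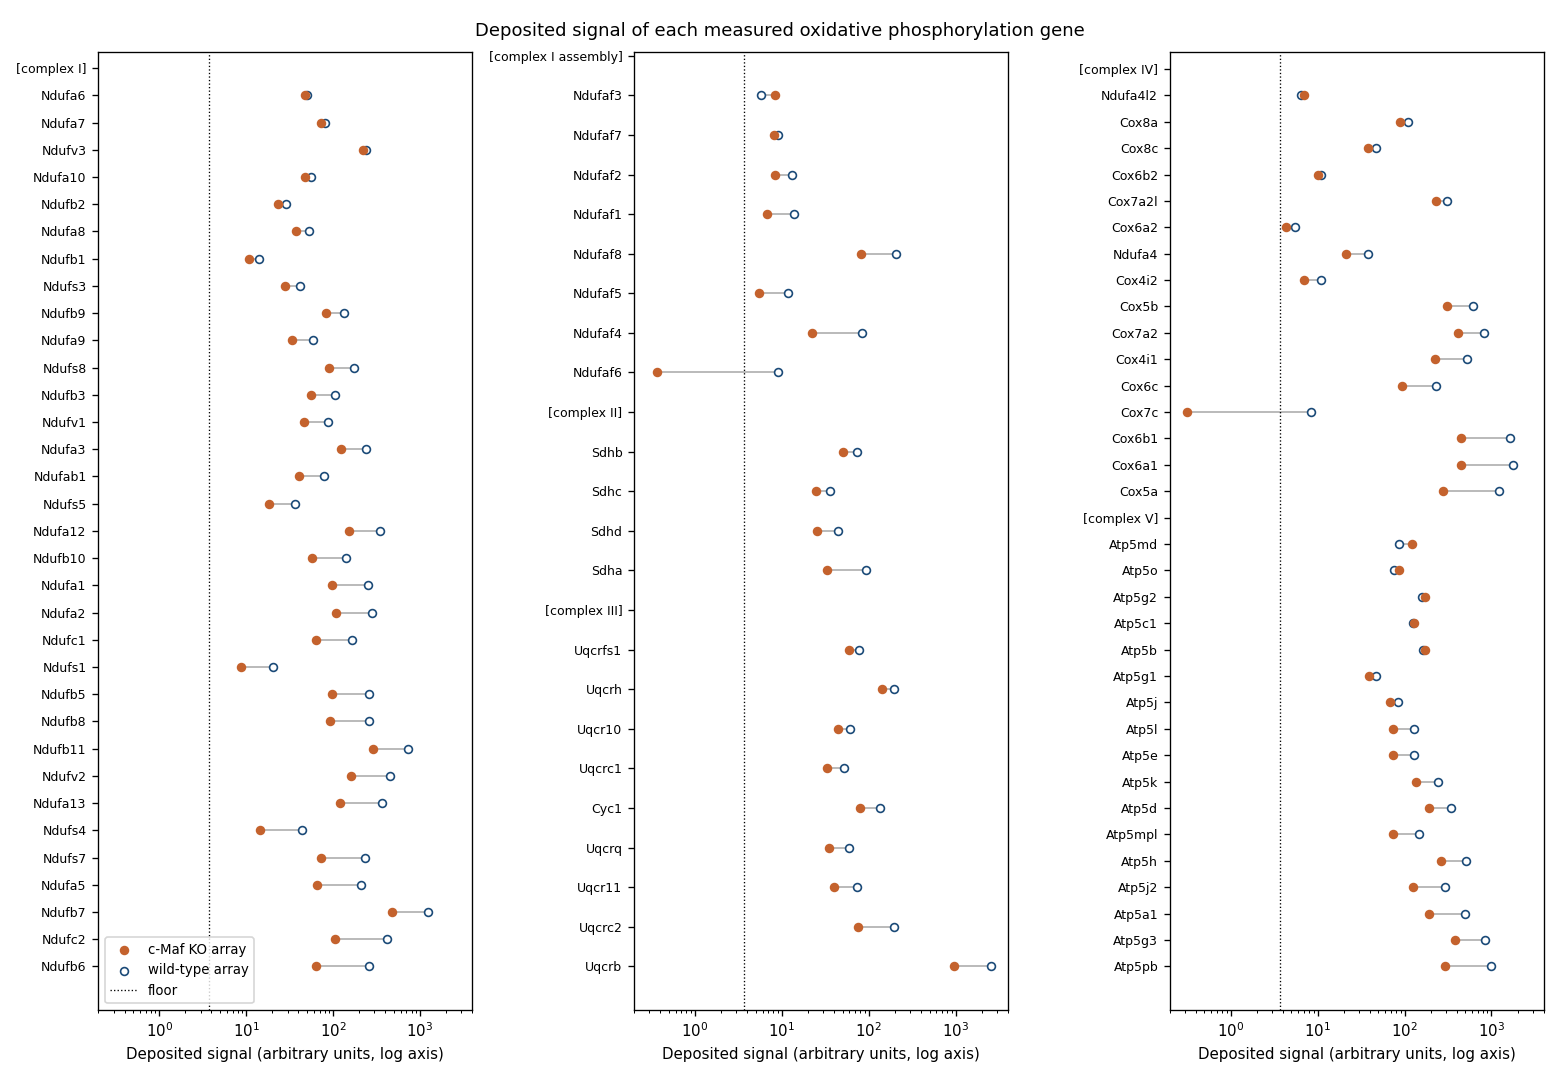
Deposited signal (arbitrary units, log axis) of each of the 87 measured members on the c-Maf KO array (filled) and the wild-type array (open), joined by a line, by complex and ordered by level-adjusted ratio within each complex. The dotted line is the floor of 3.70. Most members, like most measured genes, were brighter on the wild-type array, and 5 of the 7 members brighter on the c-Maf KO array belonged to complex V. Of all measured genes 19.4% were brighter on the c-Maf KO array, and of those that reach 4 times the floor 7.78%.

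On the level-adjusted scale the median member stood at 0.25, against 0.01 for all measured genes, and members ran from -1.23 to 1.66. At least 2-fold lower were 3 of 87 members (3.45%), against 9.05% of all measured genes. At least 2-fold higher were 9 of 87 (10.3%), against 8.34% of all genes, a share close to the background. Among genes of at least 4 times the floor, 3 of 75 members (4.0%) were lower against 12.0% of genes, and 8 of 75 (10.7%) higher against 8.63%. As deposited, 35 of 87 members (40.2%) were at least 2-fold lower against 39.8% of genes, and 0 were at least 2-fold higher against 1.19%, so in deposited signal the members' share of falls was that of the array as a whole. The 3 lower members all belonged to complex IV (Cox5a, Cox6a1, Cox6b1), and the 9 higher ones were 5 of complex V (Atp5md, Atp5o, Atp5g2, Atp5c1, Atp5b), 3 of complex I (Ndufa6, Ndufa7, Ndufv3) and the assembly factor gene Ndufaf3.

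The position of the members relative to the median gene rested on the scaling. The member median minus the median of all measured genes was 0.24 after quantile normalization and 0.48 with a loess correction for signal, but -0.14 as deposited, -0.14 with ratios centred on the median gene, -0.18 with the hybridisation controls as reference and -0.04 with equal medians. The last 4 of these scalings differ by a single constant for every gene above the floor. Their differences can part only through genes near the floor, so they are not separate readings. The direction for the group as a whole is not settled by these arrays. With equal medians 9 members (10.3%) were lower against 16.3% of genes, and 2 (2.30%) higher against 4.74%. With centred ratios 4 (4.6%) were lower against 8.22%, and 6 (6.90%) higher against 13.9%. With the hybridisation controls 54 (62.1%) were lower against 49.5%, and none higher against 0.765%. With loess none was lower against 9.43%, and 9 (10.3%) were higher against 6.12%. The members' share of falls was thus under the background in 4 of the 6 scalings, near it as deposited and over it with the hybridisation controls. Moving the floor to the 25th percentile gave 5 lower and 9 higher, against 17.7% of genes each way, and to the 65th 3 lower against 7.78% and 8 higher against 6.01%. The floor as a pseudocount gave 5 lower against 8.19% and 7 higher against 7.24%. At 1.5-fold 11 (12.6%) were lower against 21.0% and 26 (29.9%) higher against 21.2%, and at 3-fold none was lower against 2.15% and 1 higher against 1.59%. A yardstick for single genes is the difference between the brightest probe set of a member and its other probe sets: over 60 pairs in 41 members its SD was 0.71 log2 units. It is no replicate error, because both values of every pair come from these same 2 arrays.

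**Figure D2:**
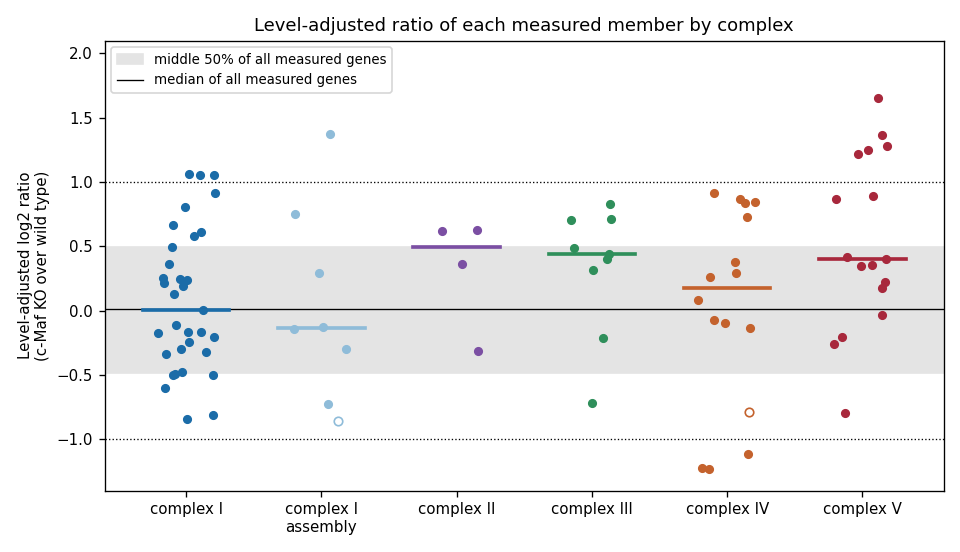
Level-adjusted log2 ratio (c-Maf KO over wild type) of each measured member by complex, with a bar at the median of each complex; open points are bounds. The grey band holds the middle 50% of all measured genes, the solid line is their median and dotted lines mark 2-fold. Complex V has 5 points above 2-fold higher, and complex IV has 3 below 2-fold lower.

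Complex I, the largest of the respiratory complexes, had 33 measured members, which after quantile normalization lay on both sides of the median gene. Their median was 0.01, 16 were below 0 and 17 above, none was lower by 2-fold or more, and 3 were higher by as much. Among the core subunits, which carry the flavin and the iron-sulfur clusters, the median was 0.02 over 6 genes, and among the accessory subunits it was 0.01 over 27. Ndufs7, which holds the last cluster before ubiquinone, had a signal of 72.1 on the c-Maf KO array and 231 on the wild-type array (-0.50). Ndufv2, an iron-sulfur protein of the NADH-oxidising tip, had 159 and 456 on the c-Maf KO and wild-type arrays (-0.34), and Ndufs1, the large iron-sulfur protein beside it, had 8.75 and 20.4 (-0.21). Ndufv1, which binds NADH and the flavin, was at 0.24, Ndufs8 at 0.25 and Ndufs3 at 0.58. By brightest probe set all core ratios lay within 2-fold. The other probe sets of Ndufs8 stood at 1.84, 1.81, 1.24, 0.20 and 0.07. The place of complex I relative to all genes rested on the scaling: its median was below that of all measured genes as deposited (-1.19 against -0.79), with equal medians (-0.52 against -0.23), with centred ratios (-0.25 against 0.14) and with the hybridisation controls (-1.43 against -0.99), and above it with loess (0.09 against -0.18).

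Of the accessory subunits, the highest were Ndufa6, Ndufa7 and Ndufv3. Ndufa6 had a signal of 47.2 on the c-Maf KO array and 50.2 on the wild-type array (1.07), Ndufa7 had 73.6 and 80.6 (1.05), and Ndufv3 had 222 and 242 (1.05). All 3 were nearly equal in deposited signal, so they stand high only against the fall of the array as a whole. The 5 probe sets of Ndufa7 ran from 0.42 to 1.05, all on the same side. The lowest were Ndufb6, with 63.4 on the c-Maf KO array and 259 on the wild-type array (-0.84), Ndufc2, with 105 and 413 (-0.82), and Ndufb7, with 472 and 1254 (-0.60). Ndufb7 and Ndufb11 (288 and 731 on the c-Maf KO and wild-type arrays, -0.32), both of the membrane arm, were the brightest genes of the complex on both arrays.

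Other accessory subunits lay between these. Ndufab1, the mitochondrial acyl carrier protein, was at 0.19, Ndufa9, which sits near the ubiquinone site, at 0.36, and Ndufa13, also known as GRIM-19, at -0.48. Ndufs4, a subunit known from inherited complex I deficiency, was at -0.49, and Ndufa5 at -0.50. Ndufa10 was at 0.92, Ndufb2 at 0.81, Ndufa8 at 0.67 and Ndufb1 at 0.61. The remaining accessory genes ran from -0.30 to 0.49.

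The 8 assembly factors were dim, with a median signal of 8.25 on the c-Maf KO array and 12.6 on the wild-type array, and a median ratio of -0.14. Ndufaf3, which helps build the ubiquinone-reducing module, had 8.29 on the c-Maf KO array and 5.70 on the wild-type array (1.38), which fell short of 2-fold with the floor at the 65th percentile (0.92) and with the floor as a pseudocount (0.90). Its partner Ndufaf4 had 22.3 and 82.6 (-0.73), and a dimmer Ndufaf4 probe set, with 7.22 on the c-Maf KO array and 4.38 on the wild-type array, stood at 1.40. The 2 partners therefore lay on opposite sides by their brightest probe sets and on the same side by the dimmer one. Ndufaf6 had 0.371 on the c-Maf KO array, below the floor, and 8.97 on the wild-type array, at least 1.82-fold lower. Ndufaf7 was at 0.75, Ndufaf2 at 0.29, and Ndufaf1, Ndufaf8 and Ndufaf5 were at -0.13, -0.14 and -0.30.

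Complex II had 4 measured members with a median of 0.49, none at least 2-fold changed. Sdhb, the iron-sulfur subunit, had a signal of 49.9 on the c-Maf KO array and 72.7 on the wild-type array (0.63). The membrane anchors Sdhc, with 24.9 and 35.6 on the c-Maf KO and wild-type arrays (0.62), and Sdhd, with 25.4 and 43.7 (0.36), also stood above 0. Sdha, the flavoprotein that oxidises succinate, had 33.3 on the c-Maf KO array and 93.3 on the wild-type array (-0.31), and its other measured probe sets stood at -0.34 and, as a bound, -0.62. The catalytic flavoprotein thus stood below 0 on every measured probe set. Second probe sets of the anchors divided, with Sdhc at 1.10 and Sdhd at -0.46.

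Complex III had 9 measured members with a median of 0.44, 7 above 0 and none at least 2-fold changed. The highest was Uqcrfs1, the Rieske iron-sulfur protein, with 59.8 on the c-Maf KO array and 76.4 on the wild-type array (0.83). Uqcrh, the hinge protein near cytochrome c1, had 142 and 194 (0.71), and Uqcr10 had 44.8 and 61.3 (0.71), while a second Uqcrh probe set was at 0.01 and a second one of Uqcr10 at -0.32. The electron carrier Cyc1, cytochrome c1, was at 0.44, with 79.7 on the c-Maf KO array and 133 on the wild-type array, and the core protein gene Uqcrc1 was at 0.48. The small subunit genes Uqcrq and Uqcr11 were at 0.40 and 0.32. The other core protein gene, Uqcrc2, was at -0.21, with a second probe set at 0.83. Uqcrb, a small subunit near the ubiquinone site, was the brightest of all 91 members on both arrays, with 948 on the c-Maf KO array and 2521 on the wild-type array (-0.72), and was the lowest of its complex. Its other probe set, with 42.8 and 54.4 on the c-Maf KO and wild-type arrays, stood at 0.81.

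Complex IV held the 3 lower members, all of them common subunits. Cox5a, a matrix-side subunit, had a signal of 278 on the c-Maf KO array and 1230 on the wild-type array (-1.23). Cox6a1, the common isoform of subunit 6A, had 447 and 1768 (-1.23), and Cox6b1, which faces cytochrome c, had 443 and 1647 (-1.12). These were the genes of complex IV with the brightest wild-type signals. A second Cox5a probe set, with 195 on the c-Maf KO array and 821 on the wild-type array, was also lower (-1.03), but the dimmest one (107 and 262) was at -0.10. The second probe set of Cox6b1 was at -0.34 and that of Cox6a1 at 0.29, so none of the 3 was at least 2-fold lower on every probe set.

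The other common subunits of complex IV lay within 2-fold, except Cox7c, for which only a bound was had. Cox4i1 was at -0.09 with 226 on the c-Maf KO array and 528 on the wild-type array, Cox7a2 at -0.08, Cox6c at -0.14, Cox5b at 0.09 and Cox8a at 0.86. The 4 measured probe sets of Cox5b ran from 0.09 to 1.22. Ndufa4, first assigned to complex I and now counted with complex IV, was at 0.29. Cox7c had 0.317 on the c-Maf KO array, below the floor, and 8.51 on the wild-type array, at least 1.73-fold lower. Its other probe set had 3.10 on the c-Maf KO array and 0.202 on the wild-type array. After adjustment that one reached the floor only on the c-Maf KO array (0.06, a bound), so both probe sets of Cox7c were dim and they did not fall alike. The median over the 10 measured common subunits was -0.12. Cox7a2l, which links complexes III and IV into supercomplexes, had 231 on the c-Maf KO array and 310 on the wild-type array (0.73).

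Isoforms of complex IV that are known from other tissues were dim or below the floor. The muscle and heart isoforms Cox7a1 and Cox8b and the testis isoform Cox7b2 had signals from 0.373 to 0.914 over both arrays, below the floor, where values have no order. Cox6a2, of muscle and heart, had 4.32 on the c-Maf KO array and 5.45 on the wild-type array, close to the floor, and the hypoxia-linked genes Cox4i2 (7.07 and 10.8) and Ndufa4l2 (6.93 and 6.41) were also dim. Cox6b2, of testis, had 10.2 and 11.0 on the c-Maf KO and wild-type arrays. An exception was Cox8c, another testis isoform, with 37.9 on the c-Maf KO array and 47.2 on the wild-type array, while its second probe set had 4.45 and 6.05. The 4 measured tissue isoforms had ratios from 0.26 to 0.85. Probe sets differ in their binding, so these signals do not rank one gene against another.

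Complex V had the most higher members, 5 of 17, with a median of 0.40 and 13 members above 0. Atp5md, a small membrane subunit of the synthase dimer, had a signal of 121 on the c-Maf KO array and 86.9 on the wild-type array (1.66), the highest ratio of all members. Atp5o, which couples the catalytic head to the peripheral stalk, had 86.2 and 75.3 (1.36). Atp5g2, for the c subunit of the proton-driven ring, had 173 and 159.6 (1.28). In the catalytic head, Atp5c1 (gamma) had 130.2 on the c-Maf KO array and 124 on the wild-type array (1.25), and Atp5b (beta), the catalytic subunit, had 171 and 164 (1.22). These 5 were the members of complex V with a higher deposited signal on the c-Maf KO array. The same held for 7.78% of all genes that reach 4 times the floor. These values are from the brightest probe set of each gene. A second Atp5o probe set was lower on the c-Maf KO array, with 38.8 against 48.7 on the wild-type array (0.83). A second one of Atp5g2, with 5.37 and 2.73 on the c-Maf KO and wild-type arrays, was near the floor (0.92, a bound). Atp5md, Atp5c1 and Atp5b had 1 measured probe set each.

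Members of complex V did not move as one. Atp5a1 (alpha), the partner of beta in the head, had 189.5 on the c-Maf KO array and 491 on the wild-type array (-0.21), while its other probe sets were at 0.83 and -0.19. The Atp5g genes all encode the same mature c subunit: Atp5g2 was at 1.28, Atp5g1 (38.7 and 46.9 on the c-Maf KO and wild-type arrays) at 0.89, and Atp5g3, the brightest of them, with 377 and 848, at -0.26. In the peripheral stalk Atp5pb had 289.7 on the c-Maf KO array and 989 on the wild-type array (-0.80), Atp5h was at 0.18 and Atp5j at 0.86. The other head subunits Atp5e and Atp5d were at 0.40 and 0.34, and the membrane subunits Atp5l, Atp5k, Atp5mpl and Atp5j2 at 0.42, 0.35, 0.22 and -0.04.

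Probe sets of the same member often disagreed, and the brightest one more often had the lower ratio. The brightest is chosen by mean deposited signal, in which the brighter wild-type array weighs more. That choice by itself favours probe sets with a lower ratio, and how far it does so was not tested. Pairs were formed where both probe sets reached 4 times the floor. In 38 of 60 pairs the brightest probe set had a lower ratio than the other one, with a median difference of -0.30, and in 15 pairs it was lower by at least 1 log2 unit against 1 pair where it was higher by as much. Genes other than members had a like median difference, -0.31 over 2261 pairs, and the brightest was lower in 64.7% of their pairs, against 63.3% for members. Differences of at least 1 log2 unit were less one-sided there, with 488 pairs lower and 216 higher. For Ndufb5 the brighter probe set had 96.9 on the c-Maf KO array and 261 on the wild-type array (-0.24) and the other 67.5 and 51.0 (1.58). For Ndufc2 the values were -0.82 for the brightest and 0.99 and 0.36 for the others, and for Atp5pb -0.80 and 0.56. The 6 probe sets of Ndufs8 ran from 0.07 to 1.84. Measured probe sets on both sides of 0 by more than 0.5 were found for Ndufb6, Ndufc2, Ndufa10, Ndufaf4, Uqcrb and Atp5pb.

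**Figure D3:**
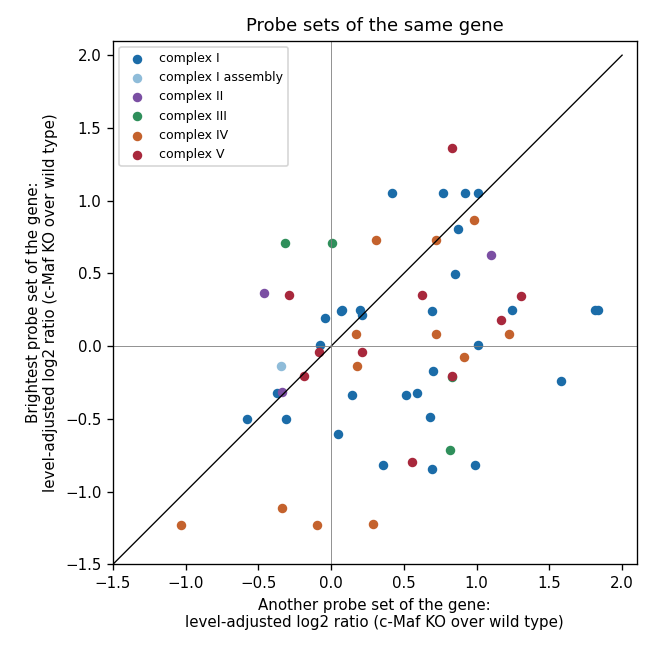
Level-adjusted log2 ratio (c-Maf KO over wild type) of the brightest probe set of a member (vertical) against that of each other probe set of the same gene (horizontal), for the 60 pairs in which both reach 4 times the floor, coloured by complex. The line marks equal ratios, and 38 pairs lie below it.

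Member ratios also differed with the kind of probe set. The 39 measured member probe sets with the suffix _a, which by the manufacturer's naming detect alternative transcripts of a gene, had a median ratio of -0.11 and a median signal of 86.2 on the c-Maf KO array and 204 on the wild-type array. The 79 without a suffix had a median ratio of 0.39 and signals of 29.5 and 47.2. The 19 with _s (0.29, signals of 74.5 and 124) and the 27 with _x (0.24, 84.0 and 114) were bright but not low. Over all genes the difference ran the other way: those with _a stood at 0.14 and those without a suffix at 0.01. With suffix-free probe sets 0 of 67 members were at least 2-fold lower, against 8.71% of genes, and 9 (13.4%) were higher, against 8.64%. Only 5 of these were among the 9 higher by brightest probe set. Ndufv3, Ndufa7, Atp5c1 and Atp5o had no measured suffix-free probe set, and other genes entered. With the mean over all probe sets of a gene, 0 of 87 were lower, against 5.14% of genes, and 9 (10.3%) higher, against 6.59%. Among the latter were 8 of the 9 higher by brightest probe set. The calls of Cox6a1 and Cox6b1 as lower thus rest on their brightest probe set alone. That of Cox5a rests on its brightest and on a second one (-1.03), both with a suffix.

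The order of the medians of the 5 complexes (II, III, V, IV, I from high to low) was the same under all 6 scalings. It was not the same with another choice of probe sets or of members. Deposited values, hybridisation controls, equal medians and centred ratios differ by a single constant for every gene above the floor. The order could therefore not change among these scalings, and only quantile normalization and loess could have altered it. Complex I had the lowest median of the 5 complexes under all 6 scalings, from -1.43 with the hybridisation controls to 0.09 with loess, and complex II the highest, from -0.91 to 0.55. With suffix-free probe sets the medians were 0.60 for complex I, 0.36 for complex II, 0.32 for complex III, 0.33 for complex IV and 0.63 for complex V. Complex I then stood next below complex V. Among members of at least 4 times the floor, complex IV (-0.08) stood below complex I (0.07). With structural subunits alone the medians of complexes IV and I were nearly equal, at 0.005 and 0.007. Complex V was above the median of all measured genes after quantile normalization, with loess and with equal medians, level with it as deposited (both -0.79) and with centred ratios (both 0.14), and below it with the hybridisation controls (-1.03 against -0.99).

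**Figure D4:**
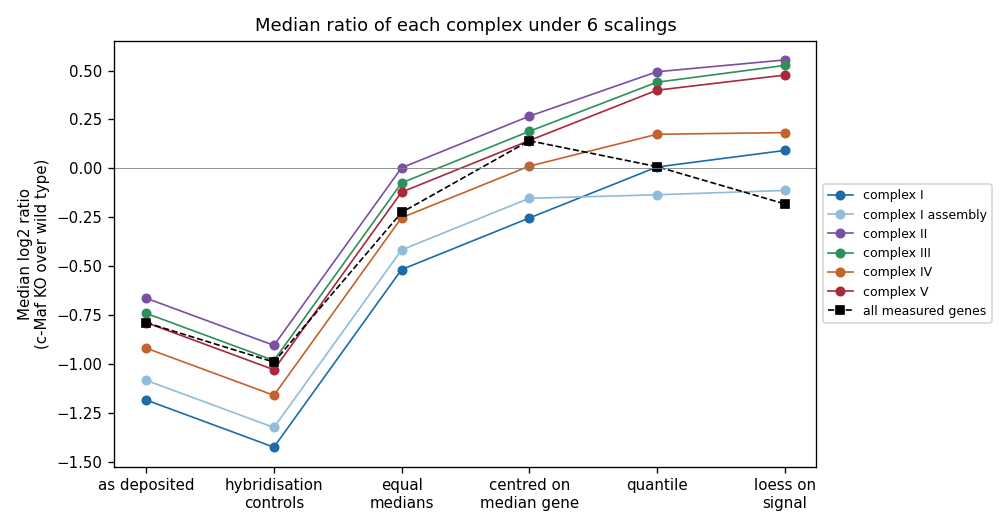
Median log2 ratio (c-Maf KO over wild type) of the measured members of each complex and of all measured genes (dashed) under 6 scalings. Complex II lies highest and complex I lowest of the 5 complexes under each scaling, and the place of all measured genes among them changes. All scalings but quantile and loess differ by a single constant for genes above the floor, so the order of the complexes is fixed among them.

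Other genes of mitochondrial respiration showed no common direction. Over all measured genes 9.05% were at least 2-fold lower and 8.34% higher. Of 16 measured genes of the citric acid cycle and pyruvate dehydrogenase, 2 were at least 2-fold lower and 0 higher, with a median of 0.16. Dlst, a subunit of the 2-oxoglutarate dehydrogenase complex, had 4.79 on the c-Maf KO array and 50.3 on the wild-type array (-2.43), Sucla2, of succinyl-CoA synthetase, had 24.4 and 129 (-1.24), and Suclg1 was at 0.98. Of 43 measured assembly factors of all complexes, 8 of which are the Ndufaf genes above, 2 were lower and 3 higher (median 0.19), with Ndufaf3 at 1.38, Uqcc1 of complex III at -1.47 and Atpaf2 of complex V at least 3.02-fold lower. Of 11 genes of mobile carriers and coenzyme Q synthesis, 1 was lower and 0 higher (median -0.01). It was Coq8a, at least 2.18-fold lower, while Coq9 stood just short of 2-fold higher and Coq6 at -0.50. Of 21 mitochondrial carrier, porin and import genes, 0 were lower and 2 higher (median 0.13): Timm8b at 1.44 and Slc25a5, the ADP/ATP carrier, with 225 on the c-Maf KO array and 195 on the wild-type array, at 1.36, while Tomm22, of the import channel, was at -0.66.

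Regulators of mitochondrial gene expression had a median of -0.15 over 15 genes, with 1 lower and 1 higher. The shares over all measured genes were 9.05% lower and 8.34% higher. Nrf1, whose motif stands in the Cox6a1 and Atp5g2 windows shown above, had 3.78 on the c-Maf KO array, just above the floor, and 19.8 on the wild-type array (-1.53). Gabpb2, a partner of GABPA, was at 1.41 with 15.05 and 11.1 on the c-Maf KO and wild-type arrays, and Polrmt, the mitochondrial RNA polymerase, at -0.96. Of 13 mitochondrially encoded subunits, 1, ND5 of complex I, had a probe set that names it alone. Its signal of 10606 on the c-Maf KO array and 9556 on the wild-type array was the highest of each array, so quantile normalization fixes its ratio at 0.

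Markers of macrophages, the sorted cells, and of other cells were read on the same arrays. The counts below stand beside 9.05% of all measured genes at least 2-fold lower and 8.34% higher. Of these lists, the hepatoblast markers stood furthest from the median of all measured genes. Of 11 measured hepatoblast markers 9 were at least 2-fold higher (median 1.51), and their summed signal was 613 on the c-Maf KO array and 401 on the wild-type array. Of 9 neutrophil markers 3 were lower and 0 higher (median -0.61; summed signal 8575 and 14846 on the c-Maf KO and wild-type arrays). Of 10 erythroid markers 1 was higher and 0 lower (median 0.25; 5482 and 8609), and of 14 macrophage markers 5 were higher and 1 lower (median 0.60; 541 and 1002). These sums are of deposited signal, which over all measured genes was 377354 on the c-Maf KO array and 768490 on the wild-type array. A smaller sum on the c-Maf KO array is therefore not by itself a fall relative to other genes. The erythroid and macrophage sums were smaller there, while their level-adjusted medians lay above that of all measured genes (0.01). Fgb of the hepatoblast list and Hba-a1 of the erythroid list were below the floor on both arrays. All these cells use oxidative phosphorylation, and the part of their numbers in the members' ratios was not tested.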

How the data were processed

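Each array gave 1 value for each of 45101 probe sets. The deposited values are linear intensities, from 0.0203 to 10606; per the labels the RNA was biotin-labelled for Affymetrix arrays, and the summary method, scaling and filters behind the authors' intensity values are not given in the sources used. Of the probe sets other than 64 controls, 34945 name 1 gene, 932 name several and 9160 name none here. Of those that name several genes, 10 include a member symbol and were not used. Symbols were updated through Entrez identifiers (GRCm38.p6). Quantile normalization used all probe sets and log2 means. Genes that reach the floor on either array were counted as measured, and calls are at least 2-fold. Alternatives were other scalings (loess span 0.3; the 18 hybridisation controls stood at a median log2 of 0.24, c-Maf KO over wild type), floors at the 25th and 65th percentiles, a pseudocount, other probe set choices, a brightness limit of 4 times the floor, stricter membership (structural subunits, platform symbols) and thresholds of 1.5- and 3-fold. The script was tested on simulated data. The members, lists and scaling were chosen with earlier results of these data known. Genes were named by a fixed rule: all members past 2-fold, the 3 highest and 3 lowest and 2 brightest of each complex, those below the floor or with divided probe sets, tissue isoforms, and up to 3 genes per other list. Other members were added after their values were seen. Python 3.11.15, pandas 2.3.3, statsmodels 0.14.6 and scipy 1.17.1 were used.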

Additional observations from a re-analysis of the deposited data

How the results depend on the processing

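With 1 array per genotype no alternative has an error, so a median is called unmoved within 0.1 log2 units and a count within 1.5 times. No paired analysis was possible because each genotype had 1 array. The member median of 0.25 became -0.93 as deposited, -0.26 with equal medians, 0.0020 with ratios centred on the median gene, -1.17 with the hybridisation controls and 0.44 with suffix-free probe sets. The member median minus that of all genes, 0.24, became -0.14 as deposited, -0.036 with equal medians, -0.14 with centred ratios, -0.18 with the hybridisation controls, 0.48 with loess and 0.42 with suffix-free probe sets. The 3 lower and 9 higher members became 35 and 0 as deposited, 9 and 2 with equal medians, 54 and 0 with the hybridisation controls, 11 and 26 at 1.5-fold and 0 and 1 at 3-fold. Lower members alone became 5 with the floor at the 25th percentile, 5 with the floor as a pseudocount, and 0 with loess, with means over probe sets and with suffix-free probe sets. The higher count stayed at 9 with suffix-free probe sets, but only 5 of these were among the 9 higher by brightest probe set. As deposited, Ndufv3 turned to -0.13, Ndufa7 to -0.13 and Ndufa6 to -0.089. With the hybridisation controls, Ndufv3 turned to -0.37, Ndufa7 to -0.37, Ndufa6 to -0.33, Atp5b to -0.17, Atp5c1 to -0.17, Atp5g2 to -0.12 and Atp5o to -0.047. Scalings differ by construction in the level set for the knockout array; the cause of the other changes was not tested. The member median and both counts stayed within these limits with the floor at the 65th percentile, the brightness limit, platform symbols and structural subunits alone. The complex IV median of 0.17 became -0.08 at the brightness limit and 0.01 with structural subunits alone, and the assembly factor median of -0.14 became -0.43 at the brightness limit. Values near the floor limit the dim assembly factors and tissue isoforms.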
